A study of Mus musculus with 61 samples.

Results

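The 10 genes described here encode the proteins that write, copy, protect and remove 5-methylcytosine in mouse DNA. *Dnmt1*, *Uhrf1* and *Hells* serve the copying of methylation to new strands, *Dnmt3a*, *Dnmt3b* and *Dnmt3l* its de novo deposition, *Tet1*, *Tet2* and *Tet3* its oxidation, and *Dppa3* its protection in the zygote. They were picked by gene symbol and not by a cut-off on level, though with earlier results of these data known. All 10 were found among the 18396 genes of the expression table and passed the filter on low values in every comparison. RNA was measured in 61 libraries of 12 conditions, in a study that asked what the KRAB zinc-finger protein ZFP708 does in oocytes, early embryos and mouse embryonic stem cells (mESCs).

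Wild-type (WT) and *Zfp708* knockout (KO) material was compared at 5 points. Libraries of 1 cell or embryo each came from oocytes at the germinal vesicle (GV) stage (7 WT, 7 KO), from zygotes (7 WT, 7 KO) and from 2-cell embryos (7 WT, 8 KO). Blastocysts were pooled by 10 (3 WT and 3 KO pools), and mESCs derived from blastocysts gave 3 WT and 3 KO libraries. The KO allele, from a founder line made with CRISPR, carries a small frameshift deletion in the KRAB-domain region. KO oocytes and embryos are maternal mutants, whereas KO mESCs came from maternal and zygotic mutant blastocysts. The deletion leaves *Zfp708* RNA in place, so that RNA does not check the KO labels. The last pair of groups were E14 cells, an established mESC line, as controls and with overexpression (OE) of FLAG-tagged ZFP708 from a piggyBac vector, 3 libraries each. OE cells were selected with puromycin and sorted for GFP, and whether the control cells were handled in the same way is not given in the sources used here, so these steps cannot be told apart from ZFP708. The labels give culture in LIF and serum, whereas the methods give derivation of the mESC lines in 2i medium on feeder cells before feeder-free culture, so the medium at harvest is uncertain. This bears on the genes described here, because 2i medium is known to lower DNA methylation and the level of the de novo enzymes. How many mothers, litters or cultures gave the libraries is not stated, so p-values measure only the spread between libraries, and litter, collection and derivation cannot be told apart from genotype.

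Methylation of the cytosine in CpG pairs is set by DNMT3A and DNMT3B, which DNMT3L, a catalytically inactive relative, stimulates. After replication UHRF1 binds the half-methylated CpG and recruits DNMT1, while HELLS, a chromatin remodeller, opens packed chromatin to the enzymes. TET proteins oxidise the methyl mark, TET3 being the form stored in the egg, and DPPA3 (also called STELLA) binds chromatin of the maternal genome and shields it from TET3. The oocyte builds up methylation during growth with DNMT3A and DNMT3L, most of it is lost before the blastocyst forms, and it is set anew around implantation.

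The sequence before the annotated starts of these genes differs widely in CpG density. RefSeq windows of the 250 bases before a transcription start (build GRCm38.p6) matched 9 of the 10 genes with 16 windows, since several genes have more than 1 start. A window of this length held a median of 6 CpG pairs (quartiles 2 and 16) over all 32851 windows, and 92.1% held at least 1. CpG, spelled CG, reads the same on both strands and cannot overlap itself. The windows of *Tet2*, *Dnmt3l* (its most upstream start) and *Dnmt1* (its most upstream and its most downstream start) are shown for this contrast, with each CpG in capitals, 5′ to 3′.
Tet2, chr3:133544391-133544640, minus strand: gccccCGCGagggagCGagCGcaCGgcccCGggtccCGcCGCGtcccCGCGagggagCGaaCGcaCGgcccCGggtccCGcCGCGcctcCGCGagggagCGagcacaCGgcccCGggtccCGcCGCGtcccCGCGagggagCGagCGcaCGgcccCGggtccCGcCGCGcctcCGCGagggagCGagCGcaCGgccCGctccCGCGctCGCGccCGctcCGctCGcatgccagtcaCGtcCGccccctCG
Dnmt3l, chr10:78042037-78042286, plus strand: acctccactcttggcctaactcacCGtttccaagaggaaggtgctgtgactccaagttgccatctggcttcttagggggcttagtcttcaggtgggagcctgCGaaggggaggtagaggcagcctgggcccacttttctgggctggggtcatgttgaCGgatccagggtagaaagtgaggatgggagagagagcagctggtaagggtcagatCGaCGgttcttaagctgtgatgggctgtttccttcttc
Dnmt1 upstream start, chr9:20959889-20960138, minus strand: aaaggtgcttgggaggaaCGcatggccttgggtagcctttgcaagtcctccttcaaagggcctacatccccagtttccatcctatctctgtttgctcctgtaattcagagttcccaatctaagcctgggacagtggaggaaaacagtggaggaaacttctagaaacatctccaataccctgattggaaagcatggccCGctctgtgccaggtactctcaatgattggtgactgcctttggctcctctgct
Dnmt1 downstream start, chr9:20952624-20952873, minus strand: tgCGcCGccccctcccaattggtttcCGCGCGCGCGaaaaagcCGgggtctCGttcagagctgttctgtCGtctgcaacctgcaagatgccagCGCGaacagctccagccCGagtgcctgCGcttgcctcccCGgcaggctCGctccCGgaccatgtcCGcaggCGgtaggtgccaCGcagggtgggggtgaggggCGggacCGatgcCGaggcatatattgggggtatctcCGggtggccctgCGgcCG
The *Tet2* window held 51 CpG pairs, a number that 0.067% of all windows reached. The *Dnmt3l* window held 5, reached by 55.6% of windows, and its other 2 starts had 4 and 3. *Dnmt1* had 2 CpG pairs before its upstream start and 26 before its downstream start, which 81.2% and 9.59% of windows reached. Its middle start had 7. The downstream window lies past that middle start, inside the gene, so its 26 CpG pairs need not be promoter sequence. In the rest the count was 38 and 40 at the overlapping upstream starts of *Dnmt3a*, 15 at its downstream start, 21 in *Dnmt3b*, 10 and 30 in *Uhrf1*, 15 in *Tet1*, 17 in *Tet3* and 28 in *Hells*. The expression table holds 1 value per gene, so transcripts from different starts, such as the oocyte and somatic forms of *Dnmt1*, cannot be told apart in the values below.

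In mm9, the build of the expression data, *Dnmt1* lies on chromosome 9 from 20711650 to 20757317, *Dnmt3a* on chromosome 12 from 3806007 to 3914443, *Dnmt3b* on chromosome 2 from 153475186 to 153513466 and *Dnmt3l* on chromosome 10 from 77504692 to 77526367. *Uhrf1* lies on chromosome 17 from 56442744 to 56462909, *Hells* on chromosome 19 from 39005405 to 39045541 and *Dppa3* on chromosome 6 from 122576428 to 122580290. The loci of the TET genes are chromosome 10 from 62267318 to 62361866 for *Tet1*, chromosome 3 from 133126643 to 133207354 for *Tet2* and chromosome 6 from 83312367 to 83391672 for *Tet3*. A copy of 97.7% identity to 98.1% of the *Dppa3* transcript and a copy of 97.8% identity to 71.8% of the *Uhrf1* transcript lie on chromosome X, so reads of these genes that fit both places may have been lost or split. The exons of *Dnmt3a* and *Dnmt3l* share 133 and 67 bases with genes on the opposite strand, *Gm10485* and *Aire*, and the libraries of single oocytes and embryos do not mark strand.

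Values are normalized counts, that is reads per gene divided by a size factor of the library. They are relative to the other RNAs of a library, so a rise of a gene cannot be told apart from a loss of other RNA. They also count only RNA that the library protocol captured. A change of capture between stages or genotypes was not tested and cannot be told apart from a change in RNA amount. The 43 libraries of single oocytes and embryos held 2486334 to 4844699 counted reads, in which 1 read was worth 0.208 to 0.397, and the 18 libraries of blastocyst pools and mESCs held 12469548 to 19596785, in which 1 read was worth 0.0441 to 0.0728. Markers of oocytes, 2-cell embryos, trophectoderm and pluripotent cells were highest in the groups so labelled, with exceptions among KO 2-cell libraries. KO 2-cell library 7 had a summed level of 9356 over 10 cumulus and granulosa markers, the somatic cells around the oocyte, and of 5.25 over 4 markers of 2-cell embryos, against 0 to 9.94 and 99.1 to 499.8 in the 7 WT libraries. KO 2-cell library 2 had sums of 2394 and 38.4. The remaining KO 2-cell libraries had granulosa sums from 31.5 to 742, all above the WT range. Control E14 libraries differed among themselves by a mean chi-square per gene of 1.08 to 1.13, where counting noise alone gives 1, OE libraries 1 and 2 by 1.26, and KO mESC libraries 2 and 3 by 1.72. Pairs within the other groups differed by at least 2.62. These near-identical libraries were kept as separate replicates, and averaging them was an alternative.

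**Figure D1:**
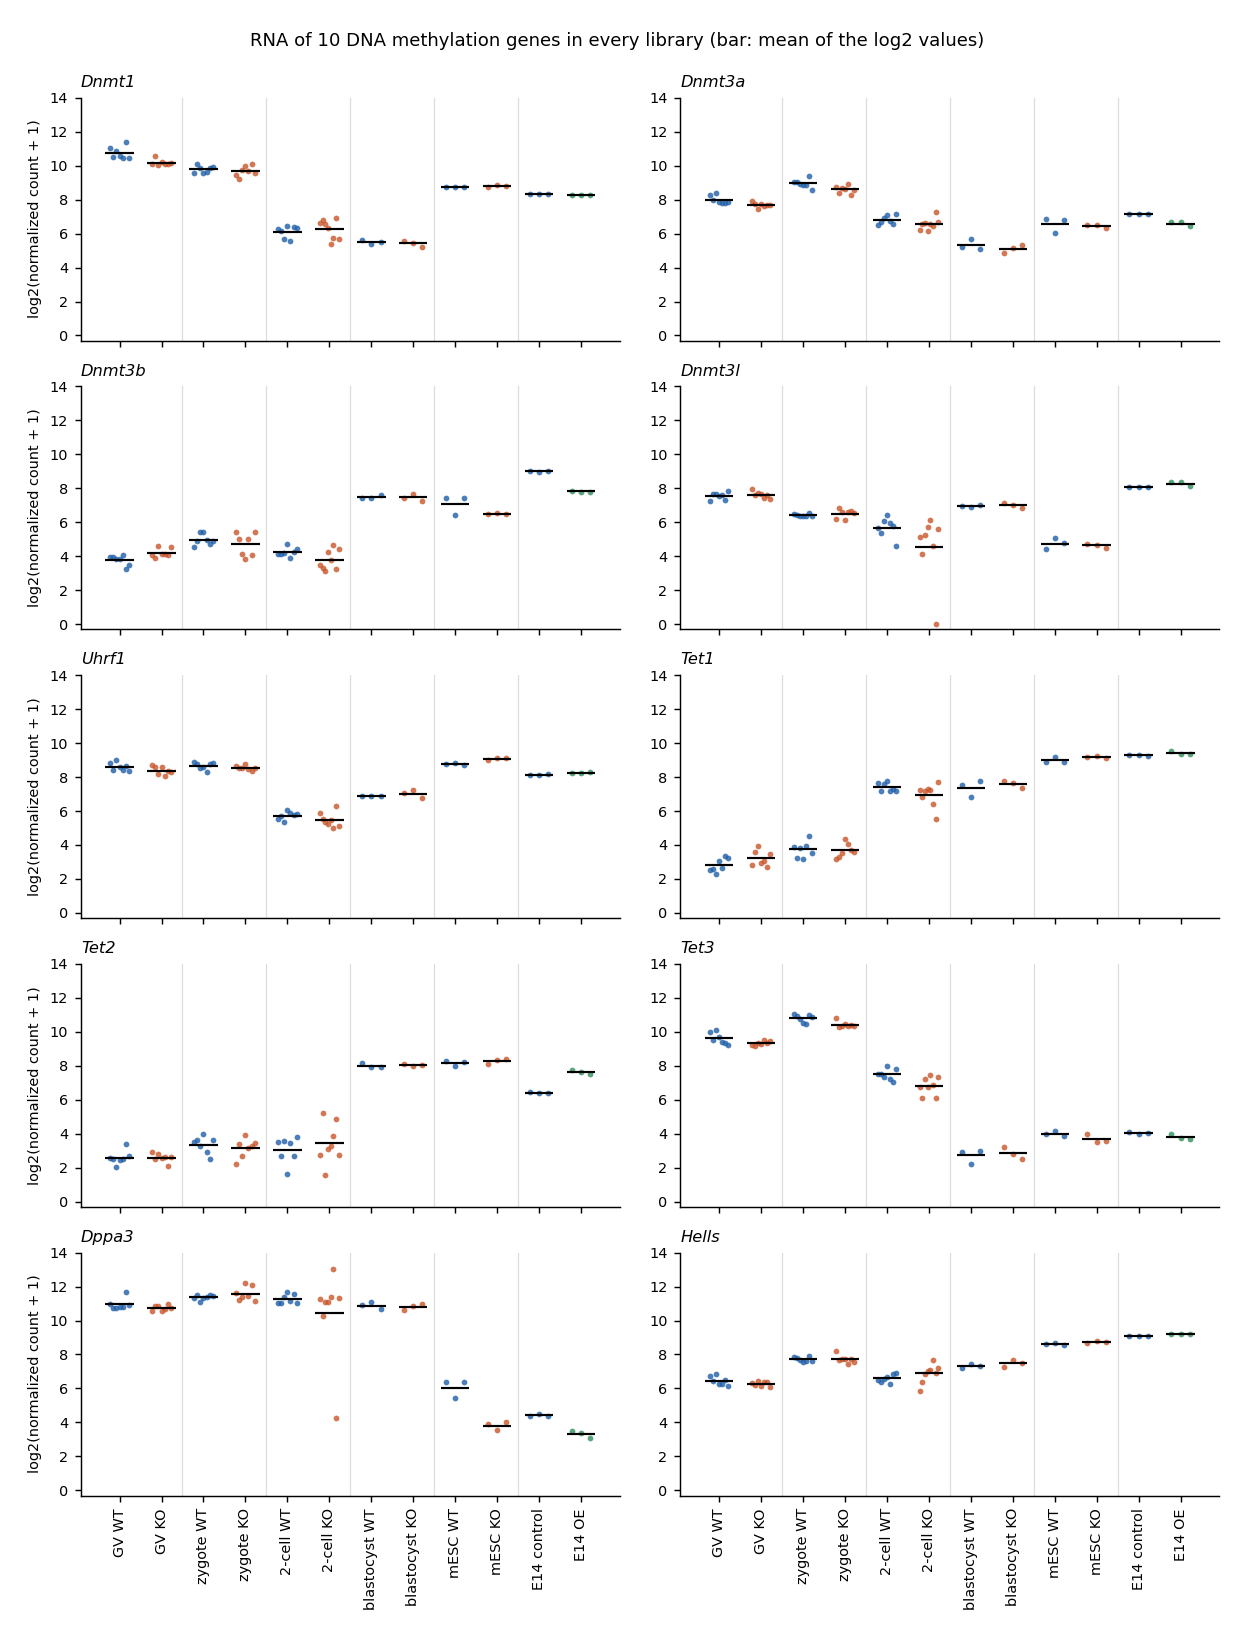
Level of each gene in every library, as log2(normalized count + 1) on the vertical axis, for the 12 conditions on the horizontal axis. Points are libraries, blue for WT and control, orange for KO and green for OE, and black bars are means of the log2 values. *Tet1* and *Tet2* are near the bottom of the scale in oocytes and zygotes and high in mESCs, *Tet3* runs the opposite way, and *Dppa3* drops between blastocysts and mESCs.

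The first question was how these RNAs change over WT development and in culture. Tests were made in limma on log2(value + 1) for each step against the one before, and changes are on that scale, each with its standard error (SE). A gene passed at an adjusted p under 0.05. Consecutive steps share a group of libraries and are not independent, and WT groups also serve as controls of the KO comparisons below. From GV oocyte to zygote 7 of the 10 genes rose and 2 fell, where 32.3% of all 11609 genes tested rose and 32.7% fell. From zygote to 2-cell embryo 1 rose and 7 fell, against 36.3% and 38.8% of genes. From 2-cell embryo to blastocyst 5 rose and 3 fell, against 32.8% and 33% of genes, and from blastocyst to mESC 6 rose and 2 fell, against 43.9% and 37.5%. Control E14 cells set against WT mESCs had 5 higher and 4 lower, against 34.3% and 26.3%. In absolute size the median log2 change of the 10 genes was 0.96, 1.63, 1.21, 1.46 and 0.61 over these steps. Their median signed change was 0.85, -0.93, 0.35, 1.26 and 0.17. The median signed change of all genes was 0.02, -0.10, -0.07, 0.15 and 0.06, and fold changes are to be read against it. An absolute median was not taken over all genes, so the absolute medians of the 10 genes have no counterpart here. The library protocol changed between single embryos and mESCs, the protocol for blastocysts is not given in the sources used here, so preparation and stage cannot be told apart in the steps into and out of the blastocyst. The comparison of E14 cells with WT mESCs is between lines and not between stages.

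Among the genes of maintenance, *Dnmt1* had its highest level in the oocyte and its lowest in the blastocyst. WT GV oocytes ranged from 1373 to 2668 (median 1520), zygotes from 758 to 1087 (median 909) and 2-cell embryos from 46.4 to 85.2 (median 77.5). The WT blastocyst pools had 49.1, 40.2 and 43.6, the WT mESCs 430, 435 and 433, and the control E14 cells 314, 323 and 323. The first drop had no overlap between groups (log2 change -0.97, SE 0.14), and the second was the largest decline among the 10 genes at that step (-3.67, SE 0.15, a 12.7-fold difference of means). Blastocysts and 2-cell embryos overlapped, and the further decline (-0.61, adjusted p = 0.0342, limma) did not pass with size factors taken within the comparison, with edgeR or DESeq2, or without any of 6 of the 10 libraries (WT 2-cell 1, 4 and 6 and WT blastocyst 1, 2 and 3), when the adjusted p reached 0.124. Between blastocysts and mESCs the level rose by 3.26 (SE 0.10), a 9.77-fold difference of means.

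*Uhrf1* RNA did not differ detectably between GV oocytes, at 392 ± 65.8 (SD, n = 7), and zygotes, at 409 ± 55.2 (SD, n = 7). The 7 WT 2-cell embryos had 40.7 to 65.4 (median 52.6), every library below the lowest zygote at 310 (log2 change -2.94, SE 0.14). It stood at 118, 116 and 116 in WT blastocysts and at 429, 460 and 416 in WT mESCs, and these groups do not overlap either (2-cell to blastocyst 1.15, adjusted p = 0.000126; blastocyst to mESC 1.89, adjusted p = 6.3e-07, limma). *Hells* moved over a narrower range. It was at 70.5 to 114 (median 84.7) in GV oocytes, 184 to 238 (median 203) in zygotes and 76.4 to 121 (median 93.9) in 2-cell embryos, a rise of 1.25 and then a fall of 1.12 on the log2 scale. WT blastocysts had 149, 175 and 156, WT mESCs 400, 415 and 373, and control E14 cells 554, 549 and 546. All 3 genes declined from zygote to 2-cell embryo, whereas their lowest WT means lay in different conditions, the blastocyst for *Dnmt1*, the 2-cell embryo for *Uhrf1* and the GV oocyte for *Hells*. The lowest group overlapped the 2-cell embryos in *Dnmt1* and *Hells*, and GV oocytes were not tested against 2-cell embryos.

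The de novo genes had separate courses. *Dnmt3a* was at 256 ± 46.5 in GV oocytes, 498 ± 84.9 in zygotes and 112 ± 18.9 in 2-cell embryos (SD, n = 7 each), and at 35.5, 51.2 and 33.3 in blastocysts. It rose by 0.96 into the zygote, fell by 2.14 into the 2-cell embryo and fell by 1.47 into the blastocyst, and WT mESCs, with 113, 65.2 and 112, were above all blastocyst pools. *Dnmt3b*, in contrast, was at 8.44 to 16.0 (median 13.4) in GV oocytes, 22.1 to 42.5 (median 28.9) in zygotes and 13.6 to 25.2 (median 17.3) in 2-cell embryos. Blastocysts had 171, 171 and 194, a rise of 3.24 (SE 0.24, a 9.78-fold difference of means) with no overlap. WT mESCs had 170, 83.8 and 174, overlapping the blastocysts, and control E14 cells had 512, 499 and 509.

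*Dnmt3l* went from 149 to 226 (median 195) in GV oocytes to 80.5 to 94.3 (median 83.0) in zygotes without overlap, a log2 change of -1.12 (SE 0.11). The 2-cell embryos had 23.0 to 85.9 (median 53.6) and overlapped the zygotes, although the decline of 0.74 passed (adjusted p = 0.00369, limma). Blastocysts had 122, 119 and 128, WT mESCs 20.6, 32.3 and 26.0, and control E14 cells 266, 273 and 272. The 2 groups of cultured WT cells thus differed by 10.3-fold in *Dnmt3l* (log2 change 3.33, SE 0.15, adjusted p = 1.52e-05, limma), by 3.56-fold in *Dnmt3b* (1.90, SE 0.27, adjusted p = 0.00137) and by 1.47-fold in *Dnmt3a*, whose difference did not pass under 9 alternatives, among them edgeR (adjusted p = 0.0757), with near-identical libraries averaged (0.165) or without any of the 3 control E14 libraries (0.112 to 0.116). Cell line, culture and handling cannot be told apart in these differences. Fibroblast markers summed to 96.9 to 104 in control E14 cells and 2.42 to 2.83 in WT mESCs, and trophectoderm markers to 73.1 to 75.2 and 27.0 to 39.3, and their part in these differences was not tested.

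The TET genes exchanged places. *Tet3* had 606 to 1097 (median 745) in GV oocytes, 1402 to 2137 (median 1895) in zygotes, 133 to 252 (median 179) in 2-cell embryos and 6.70, 3.74 and 6.91 in blastocysts, with no overlap between any consecutive groups. Its changes were a rise of 1.19, a fall of 3.31 and a fall of 4.77 on the log2 scale (SEs 0.14, 0.15 and 0.25), and the last 2 were 9.87-fold and 31.7-fold in the means. WT mESCs had 14.6, 17.2 and 13.5.

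*Tet1* had 3.90 to 9.20 (median 5.17) in GV oocytes and 8.19 to 22.3 (median 13.1) in zygotes, then 142 to 221 (median 156) in 2-cell embryos, a rise of 3.67 (SE 0.21, a 13.2-fold difference of means) and the only rise among the 10 genes at that step. It did not differ detectably between 2-cell embryos and blastocysts (182, 113 and 219 in the latter), and reached 479, 584 and 475 in WT mESCs. *Tet2* remained at 2.16 to 12.8 (median 10.0) in 2-cell embryos and was at 282, 238 and 245 in blastocysts, a rise of 4.95 (SE 0.41, a 31.3-fold difference of means). WT mESCs, at 316, 248 and 302, overlapped the blastocysts, whereas control E14 cells, at 86.9, 82.9 and 84.6, were below both.

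Divided by exon length, the *Tet3* level made up 98.5% ± 0.714 of the summed level of the 3 TET genes in WT GV oocytes and 98.8% ± 0.218 in zygotes (SD, n = 7 each). In 2-cell embryos *Tet3* held 56.6% and *Tet1* 40.3%, in blastocysts *Tet2* held 70.0% and *Tet1* 28.7%, and in WT mESCs *Tet1* held 51.5% and *Tet2* 46.4%. In control E14 cells *Tet1* alone held 79.9%. On the same scale *Dnmt1* made up 79.8% of the summed level of the 4 DNMT genes in GV oocytes, 32.2% in 2-cell embryos, 9.68% in blastocysts and 66.2% in WT mESCs. *Dnmt3b* and *Dnmt3l* together held most of the level in blastocysts, at 40.2% and 47.3%. Exon length here is the union of all annotated exons, so genes with alternative ends, such as *Dnmt3a* with 16642 bases, are understated on this scale.

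**Figure D2:**
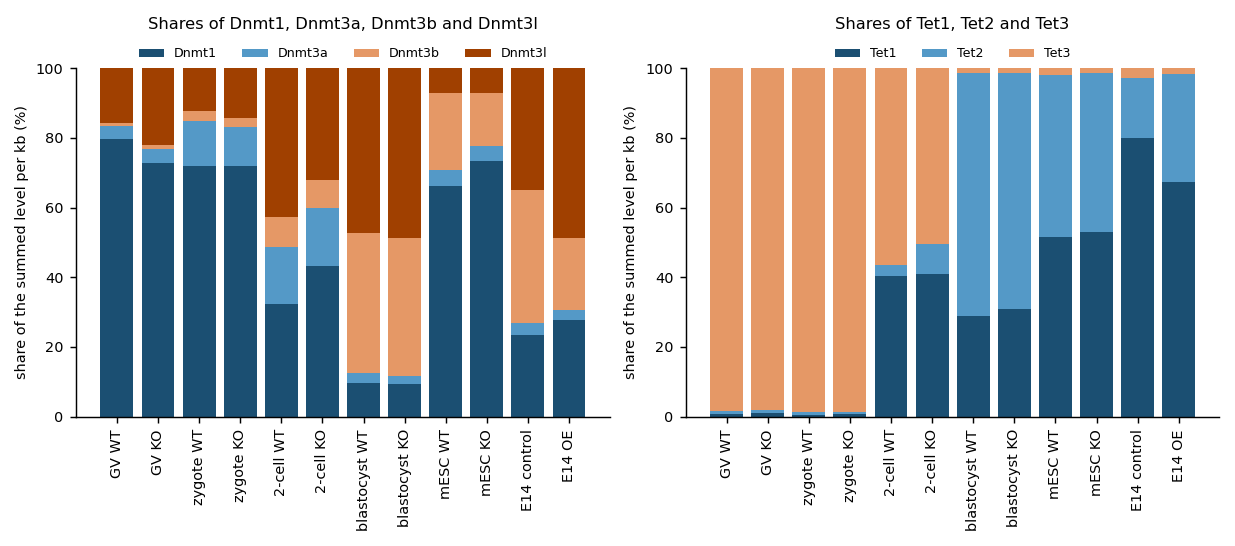
Share of each gene in the summed level per kilobase of exon of the 4 DNMT genes (left) and the 3 TET genes (right), in percent on the vertical axis, for the 12 conditions. Bars stack the means over libraries. *Dnmt1* shrinks from 79.8% in WT GV oocytes to 9.68% in WT blastocysts, and *Tet3* from 98.8% in WT zygotes to 1.29% in WT blastocysts.

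*Dppa3* was the most abundant of the 10 genes per kilobase in every condition from oocyte to blastocyst, with 2271 normalized counts per kilobase in WT GV oocytes and 2121 in WT blastocysts. The WT libraries had 1723 to 3244 (median 1796) in GV oocytes, 2146 to 2941 (median 2706) in zygotes, 2064 to 3280 (median 2274) in 2-cell embryos, and 1911, 2148 and 1616 in blastocysts, and all these neighbours overlap. The rise into the zygote (0.42, adjusted p = 0.0066, limma) was 0.02 under quantile normalization, where it did not pass. The 2-cell embryo was not detectably different from the zygote (-0.10), but under quantile normalization it was higher by 0.85 (adjusted p = 1.39e-06), a reversed direction. WT mESCs, at 81.1, 41.8 and 81.9, were lower than blastocysts (-4.83, SE 0.26, a 27.7-fold difference of means), and control E14 cells, at 19.8, 21.7 and 19.7, were lower still (-1.63, adjusted p = 0.002, limma).

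Over the 12 conditions the genes therefore had different tops. The mean level was highest in WT GV oocytes for *Dnmt1*, in WT zygotes for *Dnmt3a* and *Tet3*, in KO zygotes for *Dppa3*, in control E14 cells for *Dnmt3b*, in OE cells for *Dnmt3l*, *Tet1* and *Hells*, and in KO mESCs for *Uhrf1* and *Tet2*. In 5 of these genes the ranges of the top and the next group overlapped, which were *Dnmt1*, *Dnmt3a*, *Tet2*, *Tet3* and *Dppa3*. Among the gaps in the order were those of *Tet1*, between 2-cell embryos (131 in KO) and zygotes (13.0 in WT), of *Tet2*, between control E14 cells (84.8) and 2-cell embryos (13.6 in KO), of *Tet3*, between 2-cell embryos (119 in KO) and control E14 cells (15.6), and of *Dppa3*, between GV oocytes (1712 in KO) and mESCs (68.3 in WT). No library crossed these gaps except KO 2-cell library 7, whose *Dppa3* value was 18.1.

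The second question was whether loss of maternal ZFP708 changes these RNAs. In GV oocytes 1 gene, *Dnmt1*, was lower in KO and 0 were higher, where 2.2% of 11775 genes tested were lower and 1.44% higher. WT oocytes had 1373 to 2668 (median 1520) and KO oocytes 1045 to 1496 (median 1108), so the groups overlapped only at the top KO oocyte. The means were 1771 ± 474 and 1164 ± 152 (SD, n = 7 each), with a log2 change of -0.57 (SE 0.14, adjusted p = 0.0251, limma). The call did not hold without the trend and robust options (adjusted p = 0.0648) or without any of 6 libraries in turn (KO 3, 4, 6 and 7 and WT 1 and 3, adjusted p 0.0506 to 0.0604), while the fold change stayed between -0.64 and -0.43 over the alternatives.

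The other 9 genes did not pass in GV oocytes. *Dnmt3a* was at 205 ± 19.2 in KO and 256 ± 46.5 in WT (-0.31, adjusted p = 0.112), *Tet3* at 646 ± 58.1 and 803 ± 188 (-0.29, adjusted p = 0.18), and *Dnmt3b* at 17.7 ± 3.57 and 12.9 ± 2.63 (0.43, adjusted p = 0.13; SD, n = 7 each, limma). The log2 changes of the remaining 6 lay between -0.22 and 0.42. The sums over 9 oocyte markers were 17163 to 26626 in KO and 17744 to 25647 in WT, and those over 10 granulosa markers 55.9 to 78.2 and 44.9 to 86.0.

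In zygotes *Tet3* was the gene that passed. It had 1402 to 2137 (median 1895) in the WT libraries and 1264 to 1764 (median 1314) in the KO libraries, and the ranges overlapped. KO library 1 was the high value, apart from the other 6, which were at most 1414. The means were 1811 ± 292 and 1379 ± 176 (SD, n = 7 each; log2 change -0.38, SE 0.12, adjusted p = 0.0284, limma). It was the single member lower and 0 were higher, against 6.38% of 11168 genes lower and 8.19% higher. The call did not hold without the trend and robust options (adjusted p = 0.0781) or without any of 7 libraries in turn (KO 2, 3 and 5 and WT 1, 2, 6 and 7, adjusted p 0.0502 to 0.0721). Oocyte markers summed to 12853 to 17331 in KO and 16362 to 19856 in WT zygotes, a shift in the same direction as *Tet3*, whose part in the result was not tested.

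*Dnmt3a* had a similar fold change in zygotes, at 391 ± 59.1 in KO and 498 ± 84.9 in WT (SD, n = 7 each; -0.35, adjusted p = 0.0669, limma), and passed with size factors taken within the comparison (adjusted p = 0.0452) and with DESeq2 (0.0268). *Dnmt1*, the gene that was lower in KO oocytes, was at 831 ± 171 and 886 ± 122 (-0.11, adjusted p = 0.633). *Dppa3* was at 3191 ± 960 in KO and 2666 ± 267 in WT (0.21, adjusted p = 0.345), and its KO libraries spread from 2304 to 4733. The other 6 genes had log2 changes between -0.28 and 0.08.

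Whether the KO effect differs between these stages was tested as an interaction. From GV oocytes to zygotes 0 of the 10 genes differed in either direction, against 3.84% of 12411 genes with a higher and 2.97% with a lower effect in zygotes. The effect on *Dnmt1* was higher in zygotes by 0.47 (SE 0.19, adjusted p = 0.142, limma), on *Dppa3* higher by 0.43 (0.20, adjusted p = 0.21) and on *Dnmt3b* lower by 0.71 (0.31, adjusted p = 0.168), the 3 genes with an unadjusted p under 0.05. From zygotes to 2-cell embryos and on to blastocysts 0 genes of the 10 passed in either direction, and 0 had an unadjusted p under 0.05. All genes tested gave 1.21% higher and 0.224% lower at the first of these steps and 0% and 0% at the second, so the last comparison made no call in any gene.

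**Figure D3:**
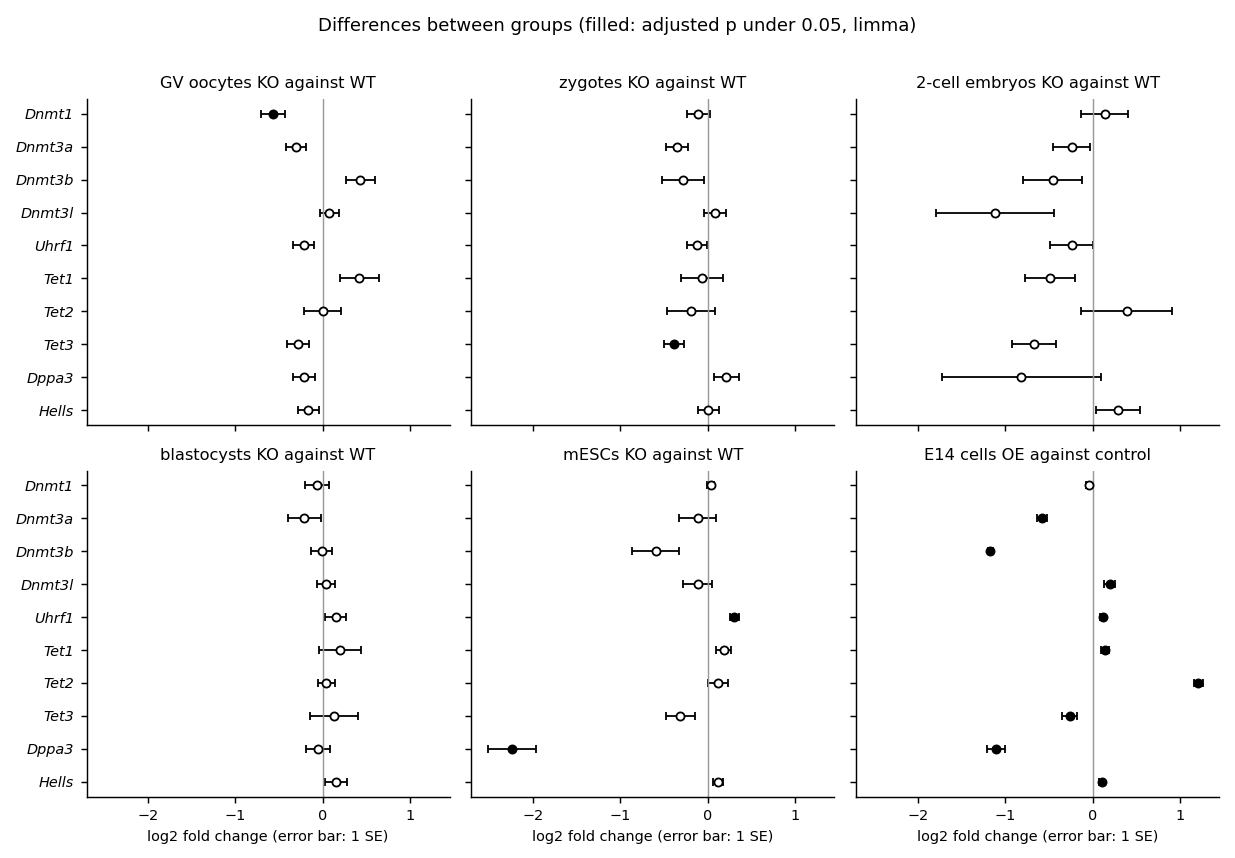
Log2 fold change of each gene in the 6 comparisons of KO with WT or OE with control on the horizontal axis, with bars of 1 standard error (SE) from limma. Filled points have an adjusted p under 0.05. Among the filled points, *Dppa3* in mESCs (-2.24) and *Tet2*, *Dnmt3b* and *Dppa3* in OE cells lie farthest from 0.

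In 2-cell embryos 0 of the 10 genes passed (0 with edgeR and 0 with DESeq2, and 1, *Tet3*, at an unadjusted p under 0.05), against 0.7% of 12578 genes higher and 0.00795% lower. The KO libraries were far more scattered than the WT ones. *Dppa3* had 2413, 1248, 2176, 2176, 2635, 8253, 18.1 and 2536 in KO libraries 1 to 8, against 2064 to 3280 in WT. Library 7, the highest in granulosa markers and the lowest in 2-cell markers, thus had less than any other, and library 6 more than any other.

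*Dnmt3l* in the same order was 33.7, 16.8, 36.8, 52.3, 68.1, 23.4, 0 and 48.2, and *Tet2* was 5.78, 36.4, 2.03, 7.72, 8.59, 13.9, 28.3 and 5.79. Libraries 2 and 7 are the lowest in *Dnmt3l* and the highest in *Tet2*. *Tet3* was at 119 ± 39.9 in KO (SD, n = 8) and 183 ± 42.5 in WT (SD, n = 7), a log2 change of -0.67 (SE 0.25, adjusted p = 0.225, limma). It too was lowest in libraries 2 and 7, at 68.4 and 67.6.

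Without KO libraries 2 and 7, an alternative chosen after seeing the data, the log2 change of *Tet3* was -0.43 (adjusted p = 0.52), that of *Dnmt3l* went from -1.12 to -0.29, that of *Dppa3* from -0.82 to 0.25 and that of *Tet2* from 0.39 to -0.15, and 0 genes passed. Leaving out library 6 as well gave *Dppa3* values of 2176 to 2635 (-0.05) and again 0 genes passed. The granulosa sums of the 6 other KO libraries, 31.5 to 742, were still above those of WT, and their part in these values was not tested. Differences of the size seen in *Tet3* were not detectable in these libraries.

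**Figure D4:**
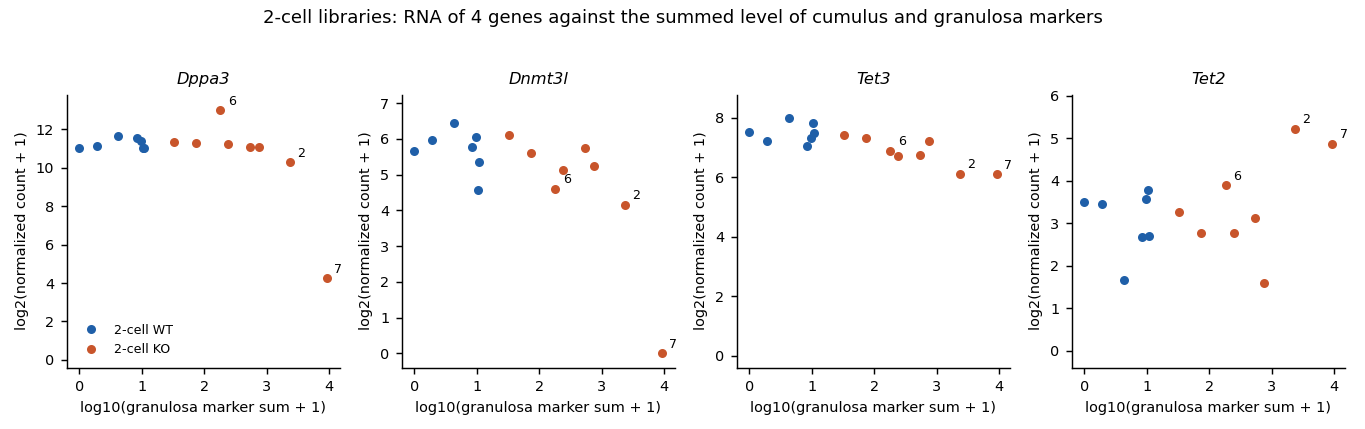
Level of 4 genes, as log2(normalized count + 1) on the vertical axis, against log10 of the summed level of 10 cumulus and granulosa markers + 1 on the horizontal axis, in 7 WT (blue) and 8 KO (orange) 2-cell libraries. KO libraries 2, 6 and 7 are marked by number. Every KO library lies to the right of the WT libraries, and library 7 lies at the right edge with the lowest *Dppa3* and *Dnmt3l*.

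In blastocysts 0 of the 10 genes passed (0 with edgeR and 0 with DESeq2, and 0 at an unadjusted p under 0.05), where 0.00885% of 11295 genes were higher in KO and 0% lower. All log2 changes lay between -0.21 and 0.20, with SEs from 0.10 to 0.27. *Dnmt3b*, for example, was at 175, 203 and 155 in KO and 171, 171 and 194 in WT, and *Tet2* at 269, 251 and 265 against 282, 238 and 245. The KO and WT ranges overlapped in each of the 10 genes.

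In mESCs *Dppa3* was lower and *Uhrf1* higher in KO. They were 1 gene each of the 10, where 5.6% of 11963 genes were lower and 8.26% higher. *Dppa3* had 81.1, 41.8 and 81.9 in the WT and 13.8, 10.6 and 15.1 in the KO libraries, with no overlap, a 5.18-fold difference of means (log2 change -2.24, SE 0.28, adjusted p = 0.00704, limma). This call held under every alternative run, with adjusted p of at most 0.0425. *Uhrf1* had 429, 460 and 416 in WT and 512, 557 and 545 in KO, again without overlap but of small size (0.31, SE 0.06, adjusted p = 0.0197). It did not hold with near-identical libraries averaged (adjusted p = 0.0527) or without any of WT 1 and 3 and KO 2 and 3 (0.0729 to 0.101).

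WT mESC library 2 stood apart from WT libraries 1 and 3. It had 83.8 for *Dnmt3b* against 170 and 174, 65.2 for *Dnmt3a* against 113 and 112, and 41.8 for *Dppa3* against 81.1 and 81.9. The KO libraries had 87.9, 91.2 and 88.5 for *Dnmt3b*, so WT library 2 lay just below all of them. With all libraries the difference of *Dnmt3b* did not pass in limma with its main settings (-0.60, SE 0.27, adjusted p = 0.19, limma). It did pass with DESeq2, which keeps all libraries. It also passed with sample weights, which keep all libraries but give less weight to those that vary more.

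Without WT library 2 there were 6 genes that passed in mESCs, in place of 2. *Dnmt3b* was then lower in KO by 0.94 (adjusted p = 4.11e-05), *Dnmt3a* by 0.38 (0.00593) and *Dppa3* by 2.55 (8.34e-05), while *Uhrf1* was higher by 0.35 (0.00142), *Tet1* by 0.28 (0.00195) and *Hells* by 0.15 (0.0389). WT libraries 1 and 3 differ from each other by a mean chi-square of 3.28, against 34.8 and 35.0 for their differences from library 2. In limma without sample weights the result thus rests on whether the close pair or the third library stands for WT mESCs. Markers of pluripotent cells summed to 3421 to 3912 in WT and 4237 to 4292 in KO libraries, and fibroblast markers to 2.42 to 2.83 and 3.97 to 7.00, and their part in these differences was not tested.

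The third question was what excess ZFP708 does in mESCs. In OE cells 5 of the 10 genes were higher and 4 lower than in control E14 cells, against 21.9% of 12257 genes higher and 28.1% lower. *Dnmt3b* had 512, 499 and 509 in control and 230, 221 and 222 in OE libraries, a 2.26-fold difference of means (log2 change -1.17, SE 0.03, adjusted p = 1.2e-08, limma). *Tet2* had 86.9, 82.9 and 84.6 in control and 213, 198 and 183 in OE, a 2.33-fold difference upward (1.21, SE 0.05, adjusted p = 1.53e-07). *Dppa3*, already low in this line, had 19.8, 21.7 and 19.7 in control and 10.2, 9.21 and 7.55 in OE (-1.11, SE 0.10, adjusted p = 1.59e-05).

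*Dnmt3a* had 142, 143 and 141 in control and 101, 99.7 and 84.8 in OE libraries (-0.58, SE 0.06, adjusted p = 4.17e-05, limma). These 4 genes had no overlap between groups and passed in every alternative run, except that *Dnmt3b*, *Dppa3* and *Dnmt3a* did not pass with near-identical libraries averaged. The other 5 that passed did so by small differences, with log2 changes of 0.19 for *Dnmt3l*, 0.14 for *Tet1*, 0.11 for *Uhrf1*, 0.10 for *Hells* and -0.26 for *Tet3*, and 4, 5 and 4 of them did not pass when control library 1, 2 or 3 was left out. *Dnmt1*, at 310 ± 2.07 in OE and 320 ± 5.14 in control (SD, n = 3 each), did not pass (-0.04, adjusted p = 0.231).

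With the control libraries averaged to 1 sample and OE libraries 1 and 2 to another, the spread had to be taken over all mESC and E14 groups, and the lone control sample is assumed to vary like them. In that small design 1 of the 10 genes passed, *Tet2* (adjusted p = 0.0344), and *Dnmt3b* and *Dppa3* both had an adjusted p of 0.19, with log2 changes of -1.18 and -1.16, close to those from separate libraries. Fibroblast markers summed to 96.9 to 104 in control and 12.9 to 19.9 in OE libraries, trophectoderm markers to 73.1 to 75.2 and 17.7 to 27.3, and pluripotent cell markers to 2920 to 2980 and 3621 to 3921. Their part in the differences was not tested. In bulk samples fewer cells of a type and less RNA per cell cannot be told apart.

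**Figure D5:**
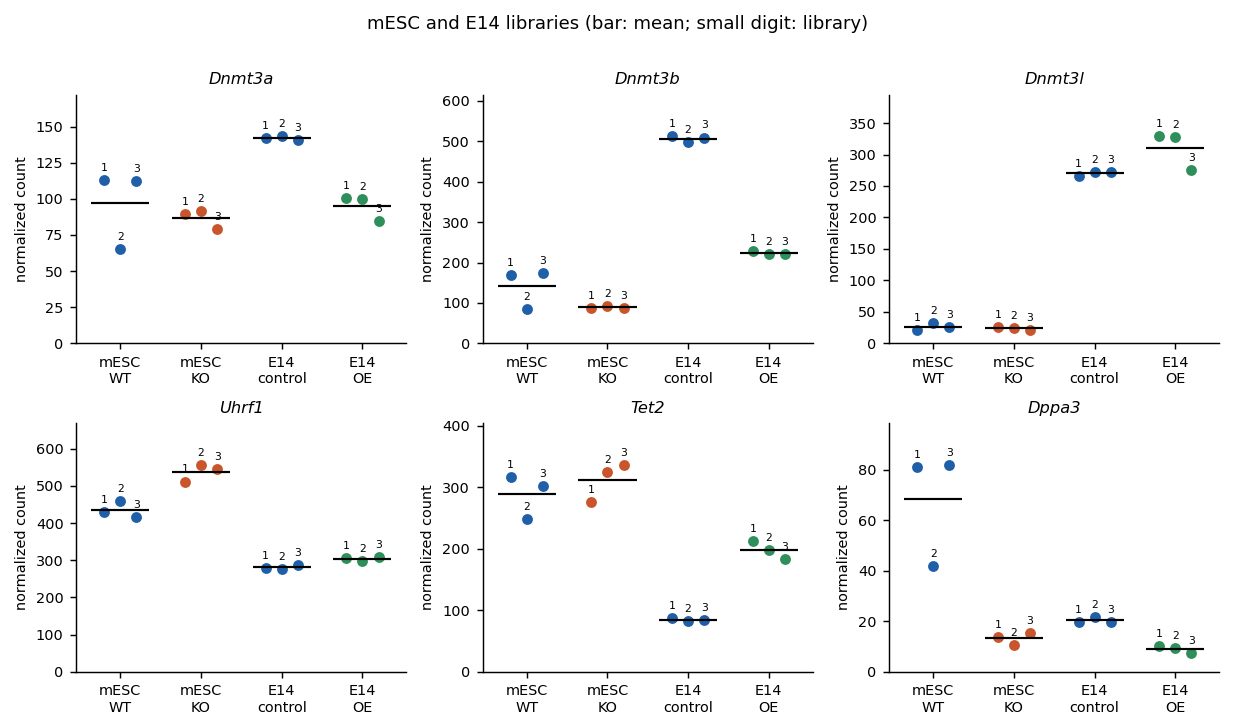
Normalized count, on vertical axes that start at 0, of 6 genes in the 3 libraries each of WT and KO mESCs and of control and OE E14 cells. Points are libraries with their number, and bars are means. WT mESC library 2 lies with the KO libraries in *Dnmt3b* and below WT libraries 1 and 3 in *Dnmt3a* and *Dppa3*, and control and OE cells are apart in all 6 genes.

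Other genes of the pathway were followed in 4 lists, whose counts stand beside shares over all genes of 8.26% higher and 5.6% lower in KO mESCs and of 21.9% higher and 28.1% lower in OE cells. The shares in KO oocytes and embryos are given with those comparisons above. Of 9 other readers of methylated CpG, 0 passed in zygotes (7 tested), 2-cell embryos (8 tested), blastocysts (7 tested) and mESCs (9 tested). In OE cells 2 of 9 were higher and 4 lower, with *Mbd3*, *Uhrf2* and *Mbd2* the 3 of smallest p. *Uhrf2*, the paralogue of *Uhrf1*, went from 71.4 ± 0.482 to 54.1 ± 7.42 (SD, n = 3 each; -0.40, adjusted p = 0.0037), *Mbd3* from 114 to 99.2 (-0.20) and *Mbd2* from 15.1 to 19.0 (0.31).

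Of 12 partners and regulators of DNMT1, UHRF1, HELLS and the de novo enzymes, 1 was lower in KO oocytes. This was *Setd2*, the enzyme whose mark on histone H3 guides de novo methylation in oocytes (138 ± 50.4 in WT and 80.4 ± 7.61 in KO, SD, n = 7 each; -0.69, adjusted p = 0.0373, limma). In KO mESCs 1 was higher, *Usp7*, a deubiquitinase that stabilises UHRF1 and DNMT1 (606 to 682 in the means, 0.17, adjusted p = 0.0465), and 2 were lower. These were *Cdca7l* (32.6 ± 0.705 to 17.6 ± 2.78; -0.86, adjusted p = 0.00951) and *Cdca7*, which binds HELLS and recruits it to chromatin (190 ± 17.3 to 154 ± 5.12; SD, n = 3 each; -0.30, adjusted p = 0.0462). In OE cells 4 were higher and 2 lower, with *Cdca7l* again lower (38.4 to 23.0 in the means, -0.71) and *Usp7* (0.24) and *Pcna* (0.33) higher. The list's medians were -0.07 in KO mESCs and 0.05 in OE cells, against -0.01 and -0.02 over all genes.

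Among 20 genes of base excision repair and TET-linked demethylation, *Parp1* was lower in KO oocytes (38.4 ± 7.20 to 25.5 ± 6.31; -0.59, adjusted p = 0.0479, limma) and in KO zygotes (47.0 ± 7.14 to 32.9 ± 7.65; SD, n = 7 each; -0.52, adjusted p = 0.0361). *Polb*, the gap-filling polymerase of base excision repair, was higher in KO zygotes, at 96.3 ± 24.0 against 46.4 ± 7.76 (SD, n = 7 each; 1.02, SE 0.16, adjusted p = 8.76e-05), and this call held in all 25 alternatives. *Idh1*, an isocitrate dehydrogenase that makes the 2-oxoglutarate the TET enzymes consume, was the single gene of the list higher in KO 2-cell embryos, from 23.8 to 1204 (median 112) in KO against 0.719 to 12.8 (median 11.5) in WT (4.42, adjusted p = 0.0274). Without KO libraries 2 and 7 it was higher by 3.38 (adjusted p = 0.00349), but 9 of its 28 alternatives did not pass, and the granulosa sums of all KO libraries were above WT, whose part in the result was not tested. In KO mESCs 2 were higher (*Ung* and *Idh2*, 0.31 and 0.38) and 2 lower (*Lig3*, -0.27, among them), and in OE cells 5 of 19 tested were higher and 6 lower, beside 21.9% and 28.1% of all genes, led by *Hmces* (88.3 to 159 in the means, 0.84), *Idh2* (0.47) and *Lig3* (-0.33).

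Of 10 genes that supply S-adenosylmethionine, the methyl donor, 0 passed in GV oocytes, zygotes, 2-cell embryos and blastocysts (9 tested in the last). In KO mESCs *Mtr*, methionine synthase, was higher (81.6 ± 2.23 to 95.3 ± 3.07; 0.22, adjusted p = 0.0459, limma) and *Ahcy*, which clears S-adenosylhomocysteine, lower (101 ± 6.50 to 78.9 ± 7.80; SD, n = 3 each; -0.36, adjusted p = 0.0451). In OE cells *Shmt2* was higher (0.67) and *Mat2a* lower (-0.43, adjusted p = 0.0477), a call that did not pass in 10 of 18 alternatives. With near-identical libraries averaged, *Hmces* was the single gene of the 11 named for OE cells in these lists that passed (adjusted p = 0.0473), and the others had an adjusted p from 0.0801 (*Shmt2*) to 0.612 (*Uhrf2*). The calls of *Setd2*, *Parp1*, *Mtr*, *Ahcy*, *Cdca7* and *Usp7* in KO material lie close to the threshold, and 9 to 18 of the 18 or 25 alternatives of each did not pass.

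The genes whose course over the 12 condition means came closest to that of each member were found by Pearson's r of log2(mean + 1) among 11889 genes, as a description over conditions that differ in library protocol and depth. *Tet1* ran most like *Sp3* (r = 0.996), *Eaf1* and *Fmr1*, *Tet3* like *Csf1* (0.995), *Gfra4* and *Zc3h6*, and *Tet2* like *Adgre5* (0.992), *Spp1* and *Itga5*. *Dnmt1* ran most like *Rhbdf2* (0.984), *Ski* and *Gbx2*, *Dnmt3a* like *Suco* (0.986), *Appl1* and *Dicer1*, and *Dnmt3b* like *Itgb1* (0.969), *Grb7* and *Nfx1*. *Uhrf1* had *Abr* (0.967), *Dpy19l1* and *Dhx29*, *Hells* had *Cebpz* (0.987), *Eprs* and *U2surp*, and *Dppa3* had *Acsm3* (0.980), *Arl8b* and *Aqp9*. The course of *Dnmt3l*, high in oocytes, blastocysts and E14 cells and low in 2-cell embryos and WT mESCs, had no close match, with *Pde1b* nearest at 0.816, then *Nln* and *Hps3*.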

How the data were processed

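RNA was sequenced from 61 libraries of 12 conditions. The deposited table holds 1 signal value per gene and library, which the authors made by aligning reads to mm9 with STAR 2.4.2a, counting those in each Ensembl gene by htseq-count, then dividing by a DESeq2 size factor set over all libraries. The counting option was that for reverse-stranded libraries, although the single-cell protocol does not mark strand. Of 18504 rows, 108 repeats of an Ensembl gene identifier were dropped and 26 symbols turned into dates were restored, leaving 18396 genes. No column was left unused (0 of the library columns). Whole reads could be recovered for 100% of values (tolerance 0.01).

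Tests were made with limma 3.58.1 in R 4.3.3 on log2(value + 1), trended and robust, keeping genes that reached a value of 1 in a number of libraries equal to the smaller group's size, with Benjamini-Hochberg adjustment over all genes tested. This scale understates changes of low genes. The threshold was an adjusted p of 0.05. Each comparison used only its own groups, and interactions used the groups of both stages. Alternatives were pseudocounts of 0.1 and 5, no filter and a filter at 10, sample weights, size factors or quantile normalization within the comparison, no trend or robust option, edgeR 4.0.16 and DESeq2 1.42.0 on the recovered reads, the replicate number as a block, near-identical libraries averaged, and each library left out. The steps were tested on simulated data. KO comparisons recovered 76% (blastocysts) to 95% (GV oocytes) of 2-fold changes, except 9% in 2-cell embryos (68% of 4-fold changes). WT blastocysts against 2-cell embryos also gave 9% (76% of 4-fold changes). The interactions ending at the zygote, 2-cell embryo and blastocyst gave 61%, 8% and 0% (99%, 49% and 4% of 4-fold changes). Where recovery was low, a gene that did not pass may still have changed. At most 9.33% of calls were false, in KO blastocysts. On recovered reads edgeR and DESeq2 called 438 and 992 genes in GV oocytes, where limma called 429, and for zygotes the figures were 1576 and 1920 (limma 1628). They were 262 and 917 for 2-cell embryos (limma 89), 1 and 3 for blastocysts (limma 1), 1611 and 2441 for mESCs (limma 1658) and 6199 and 5217 for OE cells (limma 6121).

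The 10 genes, the pathway lists and the marker lists were chosen with earlier results of these data known. Named are all 10 genes and the 3 genes of highest likeness to each. From each list, up to 3 genes that passed are named per comparison of KO with WT or OE with control, by smallest p. List results in the WT steps and in the interactions, some of which passed, are not given here. The result of the list of methylated-CpG readers in GV oocytes is not reported here. Replicate numbers did not pair libraries, since in no comparison did every same-numbered pair correlate above 0.1. KO 2-cell libraries 7 and 8 both carry the replicate label 7. Transcript copies were searched with minimap2 2.31, figures were drawn with matplotlib 3.10.9, and Python 3.11.15, pandas 2.3.3 and numpy 2.4.6 were used for tables. Of 6 markers of 2-cell embryos, 4 were analysed here. The table is per gene, and the depth behind each library limits only the lowest values.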

Additional observations from a re-analysis of the deposited data

Results flagged for a closer look

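In groups of 7 or 8 libraries, a value was singled out where its gap to the nearest other library was large against the range of its group (Dixon's 95% limit). Of 60 groups of values tested, 7 were singled out. The limit gives about 1 in 20 for normal and independent values. Counts of several genes from the same libraries need not be either, so the 7 cannot be read against that rate. In GV oocytes these were *Dnmt1* in KO library 2, the highest of its group at 1496, and *Tet2* and *Dppa3* in WT library 6, the highest at 9.46 and 3244. In zygotes they were *Tet3* and *Hells* in KO library 1, the highest at 1764 and 291. In 2-cell embryos they were *Dnmt3a* in KO library 7, the highest at 153, and *Dppa3* in KO library 6, the highest at 8253. The high KO values of *Dnmt1* and *Tet3* lie in the comparisons where those genes passed as lower in KO, and they narrow the difference there.

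For 2 genes the KO effect had opposite signs in GV oocytes and mESCs, and that difference was not tested. The change in mESCs minus that in GV oocytes was -1.03 for *Dnmt3b* (0.43 in GV oocytes and -0.60 in mESCs) and 0.28 for *Hells* (-0.17 and 0.12). None of these 4 effects passed in limma with its main settings. In mESCs *Dnmt3b* passed in 3 and *Hells* in 2 of 18 alternatives, for both genes with sample weights among them.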

How the results depend on the processing

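Among results of single genes under an alternative, 3595 stayed on their side of the threshold (values that did not pass could still change sign, as those of *Dppa3* and *Tet2* in KO 2-cell embryos), 221 lost and 21 gained a call, and 1 passed in the opposite direction, *Dppa3* in WT 2-cell embryos against zygotes under quantile normalization (0.85). Without trend or robust option 0 members were called in GV oocytes, 0 in zygotes and 5 in OE cells. In zygotes 2 were called with size factors within the comparison and 2 with DESeq2. In mESCs 7 were called with sample weights and 1 with near-identical libraries averaged, and in OE cells 1 with the latter. Leaving out each library in turn gave 0 to 1 members in GV oocytes, 0 to 1 in zygotes, 1 to 6 in mESCs, 4 to 8 in OE cells, 7 to 9 from 2-cell embryo to blastocyst, 8 to 9 from blastocyst to mESC and 7 to 9 for E14 against WT mESCs. With the replicate block, 12 of 135 gene results lost their call and 0 gained one, *Dnmt1* in blastocysts against 2-cell embryos among them (-0.53, adjusted p = 0.0658, limma), and the numbers do not pair libraries. Over all genes DESeq2 called 992 in GV oocytes in place of 429, and edgeR and DESeq2 called 262 and 917 in 2-cell embryos in place of 89. With near-identical libraries averaged, 491 genes were higher and 259 lower in KO mESCs in place of 988 and 670, and 60 and 175 in OE cells in place of 2680 and 3441. The cause of these differences was not tested. Depth limits *Tet1* and *Tet2* in oocytes and zygotes, where each is covered by few reads.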
